A study of Mus musculus with 24 samples.

Results

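Expression of 32 genes of cholesterol synthesis and lipid homeostasis was examined in striatal tissue of R6/1 mice and wild type littermates, with and without the HDAC inhibitor RGFP109. The members were taken by their symbols from the 24340 genes that the 6 deposited comparison tables share, and were ordered by their step: 7 enzymes of the mevalonate steps, 3 of the squalene steps, 8 of the sterol steps, 5 regulators of the SREBP system, 6 genes of sterol movement and removal, and a group of 3 with the LXR receptors and an LXR target. R6/1 mice are hemizygous for a transgene with the first exon of the human huntingtin gene and an expanded CAG repeat, and model Huntington's disease. All mice were males on a C57BL/6J background and all were injected, so that the vehicle groups also carry the effects of handling and of the DMSO and saline solvent.

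The 24 striatal libraries fell into 4 groups. WT-vehicle had 5 libraries and WT-RGFP109 had 6, and R6/1-vehicle had 6 libraries and R6/1-RGFP109 had 7. RGFP109, which inhibits HDAC1 and HDAC3, was given intraperitoneally in doses of 30 mg/kg over 3 weeks, with 5 injections in each week, starting at 11 to 14 weeks of age. The striatum of 1 hemisphere was taken 18 hours after the last injection, at 14 to 17 weeks of age. The deposited tables hold 1 FPKM value for each group (fragments per kilobase of transcript scaled to the mapped fragments of the library, a level that can be compared between genes) and the results of the authors' own comparisons, which were not used here. Values per mouse were not used here either, so no error between mice is given and no test was made. Differences were read instead against the same quantity over all genes, and against the second genotype comparison, which used no mouse of the first.

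Cholesterol hardly passes from the blood into the brain, which makes its own from acetyl-CoA by way of mevalonate, squalene and lanosterol, with astrocytes and oligodendrocytes as major producers in the adult. When sterol in the membrane of the endoplasmic reticulum is low, SCAP carries the SREBP precursors to the Golgi, where they are cut to release transcription factors that switch on the enzymes of the pathway, and INSIG proteins hold this transport back when sterol is plentiful. Surplus cholesterol is turned into oxysterols, which leave the brain and activate the LXR receptors, and these in turn switch on genes of cholesterol export.

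Promoter windows of 250 bases before the RefSeq start site (build GRCm38.p6, the assembly that mm10 names) were at hand for 26 of the 32 members. The letters TCACNCCAC of a sterol regulatory element, on either strand, stood in 1 of these 26 (3.85%), the Hmgcs1 window, 137 bases before the start, and in 1.26% of the 10100 expressed genes with a window. The CCAAT box, bound by NF-Y, a common partner of SREBP, was found on either strand in 20 of 26 members (76.9%) against 40.1% of expressed genes, and the GC box GGGCGG in 22 of 26 (84.6%) against 64.6%. A gene with several start sites was counted when any of its windows held the letters. The LXR direct repeat (AGGTCA at both ends of a 4-base spacer) matched no member window and 0 of the 10100. These are matches of letters and not sites of binding. The windows of 5 members are shown, because Hmgcs1 holds the sterol element match, Mvd, Msmo1 and Insig1 are the genes of synthesis and its regulation among the 4 members lower by more than 0.5 on the log2 scale in both genotype comparisons below (the other being Cyp46a1, a gene of removal), and Mvk, an enzyme of the same pathway with 5 CCAAT matches, hardly differed. Capitals mark the sterol element, CCAAT or its reverse complement ATTGG.
Hmgcs1, chr13:119690101-119690350, plus strand: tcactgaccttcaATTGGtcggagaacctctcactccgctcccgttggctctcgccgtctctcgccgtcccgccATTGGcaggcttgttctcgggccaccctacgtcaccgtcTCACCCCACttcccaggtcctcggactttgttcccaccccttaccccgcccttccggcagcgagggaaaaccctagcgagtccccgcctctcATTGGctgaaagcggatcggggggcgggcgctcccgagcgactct
Mvd, chr8:122443423-122443672, minus strand: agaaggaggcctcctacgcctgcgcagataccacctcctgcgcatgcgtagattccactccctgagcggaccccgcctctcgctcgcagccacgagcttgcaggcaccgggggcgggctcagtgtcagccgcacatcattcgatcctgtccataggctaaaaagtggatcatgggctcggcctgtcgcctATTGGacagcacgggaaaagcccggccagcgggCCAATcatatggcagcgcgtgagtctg
Msmo1, chr8:64733579-64733828, minus strand: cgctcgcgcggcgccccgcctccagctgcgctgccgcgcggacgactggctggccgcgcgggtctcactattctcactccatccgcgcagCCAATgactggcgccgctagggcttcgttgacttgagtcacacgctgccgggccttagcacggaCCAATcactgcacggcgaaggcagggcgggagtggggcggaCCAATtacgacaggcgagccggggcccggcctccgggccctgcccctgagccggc
Insig1, chr5:28071162-28071411, plus strand: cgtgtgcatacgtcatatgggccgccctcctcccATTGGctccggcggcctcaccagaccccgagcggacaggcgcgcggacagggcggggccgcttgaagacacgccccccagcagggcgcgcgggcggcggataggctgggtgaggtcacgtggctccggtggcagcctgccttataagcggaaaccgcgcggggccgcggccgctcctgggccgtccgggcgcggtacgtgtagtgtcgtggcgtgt
Mvk, chr5:114444019-114444268, plus strand: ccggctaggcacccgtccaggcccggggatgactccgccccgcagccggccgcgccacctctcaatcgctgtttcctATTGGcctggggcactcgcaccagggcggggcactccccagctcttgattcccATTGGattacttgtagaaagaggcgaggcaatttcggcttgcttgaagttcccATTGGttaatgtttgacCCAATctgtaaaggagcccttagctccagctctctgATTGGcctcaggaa

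Most of these genes were lower in the R6/1 striatum than in the wild type striatum, and the differences were moderate. Of the 32 members, 31 passed the minimum mean of 1 FPKM, and 26 of the 31 (83.9%) were lower in R6/1-vehicle than in WT-vehicle, against 50.9% of the 13659 genes kept. The median log2 ratio of the members was -0.25, where the median of all genes was -0.0067, and the 17 enzymes kept had a median of -0.28. In these bulk samples fewer cells of a type and less RNA per cell cannot be told apart. In the plot of all levels the 2 wild type groups and the 2 R6/1 groups form separate pairs for most enzymes.

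**Figure D1:**
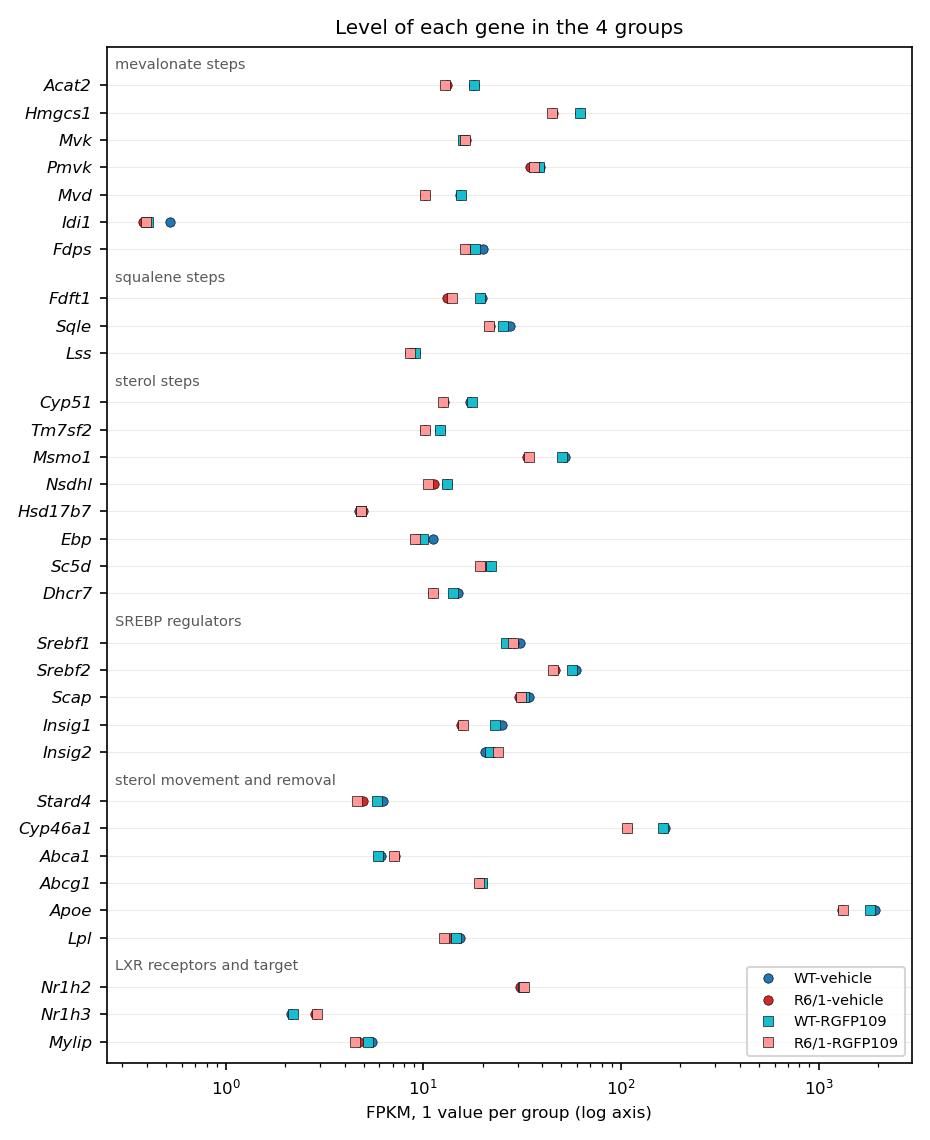
Level of each member in FPKM on a log axis, 1 point for each of the 4 groups, ordered by step of the pathway. Apoe lies highest, at 1308 to 1940.3 FPKM, and Idi1 lowest, at 0.38 to 0.52 FPKM, and for genes such as Mvd, Msmo1 and Cyp46a1 both R6/1 points lie left of both WT points.

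A difference of more than 0.5 on the log2 scale, the minimum size of the study, was reached in R6/1-vehicle by 6 of 31 members (19.4%), all lower, where 10.2% of all genes were lower by that size and 3.84% were higher. Between R6/1-RGFP109 and WT-RGFP109 it was reached by 4 of 31 (12.9%), again all lower, where 8.58% of all genes were lower by that size and 3.46% were higher, so that here the share of the members lay near the background. A smaller difference toward lower values was more frequent among the members than among all genes, though not shared by all of them. At more than 0.25 on the log2 scale, 15 members (48.4%) were lower in R6/1-vehicle against 22.5% of all genes, and 14 (45.2%) were lower in R6/1-RGFP109 against 19.4%. Only 1 member, Nr1h3, was higher by that amount in R6/1-vehicle, where 15.3% of all genes were, and 2, Nr1h3 and Abca1, in R6/1-RGFP109, where 12.8% of all genes were. Under RGFP109 24 of 31 members (77.4%) were below 0 against 48.2% of 13651 genes, with a median of -0.23 against 0.010 for all genes.

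**Figure D2:**
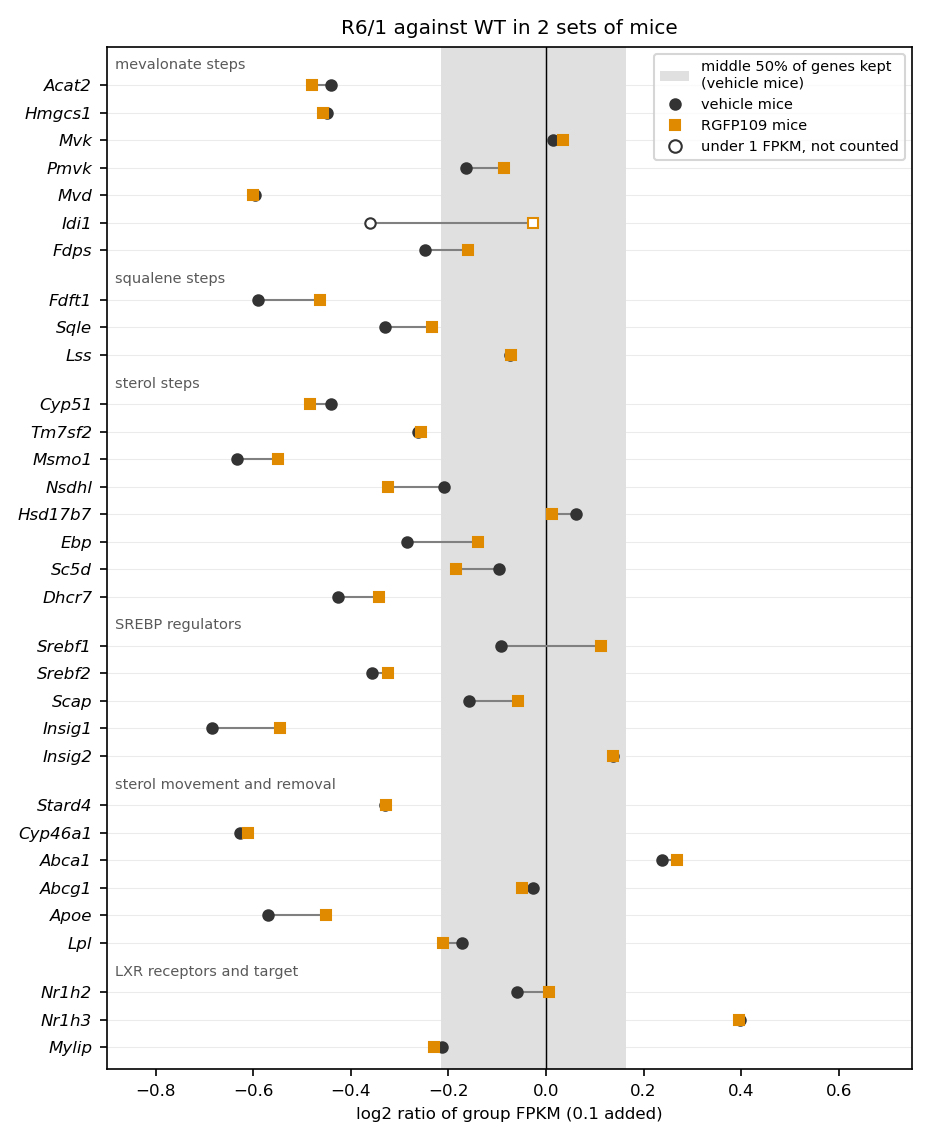
Log2 ratio of R6/1 to WT for each member in the vehicle mice (circles) and in the RGFP109 mice (squares), joined by a line, with the middle 50% of all genes in the vehicle mice in gray and open symbols for Idi1, which lay under the minimum FPKM. Most pairs lie left of 0 and close together, from -0.68 and -0.55 for Insig1 to 0.40 and 0.39 for Nr1h3.

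The mevalonate steps begin with Acat2, the thiolase that joins acetyl-CoA units, at chr17:12943042-12960725 (mm10 coordinates, from RefSeq). Its level was 18.0 FPKM in WT-vehicle and 13.2 in R6/1-vehicle, and 18.0 in WT-RGFP109 and 12.9 in R6/1-RGFP109. Both R6/1 values lay below both WT values, with log2 ratios of -0.44 in vehicle mice and -0.48 in RGFP109 mice. Acat3, a close relative on the same chromosome that could share reads with Acat2, was listed at 1.94, 1.39, 2.08 and 1.30 FPKM in the same order of groups, so a small part of the Acat2 value is uncertain. Hmgcs1, the HMG-CoA synthase (chr13:119690351-119708260), was the most abundant enzyme of the pathway, with 62.1 FPKM in WT-vehicle and 45.4 in R6/1-vehicle, and 61.9 in WT-RGFP109 and 45.1 in R6/1-RGFP109. The R6/1 values differed from the WT values by -26.8% and -27.2%, and the log2 ratios of -0.45 and -0.46 differed by 0.0084.

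The next enzymes differed in the size of their ratios. Mvk, mevalonate kinase, stood at 16.3 FPKM in WT-vehicle and 16.4 in R6/1-vehicle, and 15.8 in WT-RGFP109 and 16.2 in R6/1-RGFP109, with log2 ratios of 0.014 and 0.035. Pmvk, which adds the second phosphate, had 39.0, 34.7, 38.6 and 36.3 FPKM in the same order, with log2 ratios of -0.16 and -0.086. Mvd, the decarboxylase that makes isopentenyl diphosphate (chr8:122433596-122443422), was lower in R6/1 than any other enzyme of these steps. Its level was 15.4 FPKM in WT-vehicle and 10.2 in R6/1-vehicle, and 15.5 in WT-RGFP109 and 10.2 in R6/1-RGFP109. The log2 ratios were -0.60 in vehicle mice and -0.60 in RGFP109 mice, apart by 0.0038, and 7.67% of all genes had a lower ratio in the vehicle mice. Fdps, which builds farnesyl diphosphate, had 20.1, 16.9, 18.2 and 16.3 FPKM, with log2 ratios of -0.25 and -0.16. Idi1, the isomerase between Mvd and Fdps, was listed at 0.52, 0.38, 0.40 and 0.39 FPKM, under the minimum, and was left out of every count and median of log2 ratios. Its relative Idi2 was lower still, at 0.0062 to 0.029 FPKM.

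At the squalene steps, Fdft1, squalene synthase (chr14:63145150-63181687), was listed at 19.8 FPKM in WT-vehicle and 13.1 in R6/1-vehicle, and 19.3 in WT-RGFP109 and 13.9 in R6/1-RGFP109. Its log2 ratios were -0.59 and -0.46, and both R6/1 values lay under both WT values. Of its exonic bases, 20.9% overlap the gene Ctsb on the opposite strand, which had 174 FPKM in WT-vehicle and log2 ratios of -0.076 and -0.030, and the use of strand in counting is not given in the sources used here, so the value of Fdft1 is uncertain. Sqle, squalene epoxidase, had 27.4, 21.8, 25.3 and 21.5 FPKM, with log2 ratios of -0.33 and -0.23. Lss, the cyclase that forms lanosterol, differed little, at 9.04, 8.58, 9.03 and 8.59 FPKM and log2 ratios of -0.074 and -0.071. The antisense gene 4930483K19Rik, which shares 8.16% of the exonic bases of Lss, was listed at 0.20 FPKM in WT-vehicle.

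Of the 8 enzymes that turn lanosterol into cholesterol, 7 were lower in R6/1 in both genotype comparisons, against 40.8% of 13460 genes. This count has no minimum size and takes in Sc5d, whose ratio in vehicle mice was -0.097. The lowest ratio was that of Msmo1, which removes the methyl groups at carbon C4 as an oxidase (chr8:64718123-64733578), with 51.9 FPKM in WT-vehicle and 33.4 in R6/1-vehicle, and 50.2 in WT-RGFP109 and 34.3 in R6/1-RGFP109. The R6/1 values differed from the WT values by -35.6% and -31.7%, with log2 ratios of -0.63 and -0.55. Cyp51, lanosterol demethylase (chr5:4080674-4104697), had 17.3, 12.7, 17.6 and 12.6 FPKM and log2 ratios of -0.44 and -0.48. Of its exonic bases, 4.22% overlap Akap9 on the opposite strand. Akap9 had 17.7 FPKM in WT-vehicle and log2 ratios of -0.14 and -0.23, so a part of the Cyp51 value is uncertain. Dhcr7, the reductase that can make cholesterol in the last step (chr7:143823167-143848410), had 15.1, 11.2, 14.1 and 11.1 FPKM and log2 ratios of -0.43 and -0.34.

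Smaller differences were found at the other sterol steps. Tm7sf2, a sterol reductase, had 12.2, 10.2, 12.1 and 10.1 FPKM and log2 ratios of -0.26 and -0.26. Nsdhl, the dehydrogenase that follows Msmo1, had 13.1, 11.3, 13.2 and 10.5 FPKM and ratios of -0.21 and -0.32. Ebp, the sterol isomerase, had 11.2, 9.16, 9.96 and 9.03 FPKM and ratios of -0.28 and -0.14, which differed by 0.14, more than for any other enzyme kept. Sc5d, the desaturase after Ebp, had 21.8, 20.4, 22.1 and 19.5 FPKM and ratios of -0.097 and -0.18. Hsd17b7, a sterol ketoreductase, did not share the direction, at 4.73, 4.95, 4.81 and 4.86 FPKM and ratios of 0.062 and 0.013. The summed level of the 18 enzymes was 375 FPKM in WT-vehicle and 294 in R6/1-vehicle, and 366 in WT-RGFP109 and 293 in R6/1-RGFP109.

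**Figure D3:**
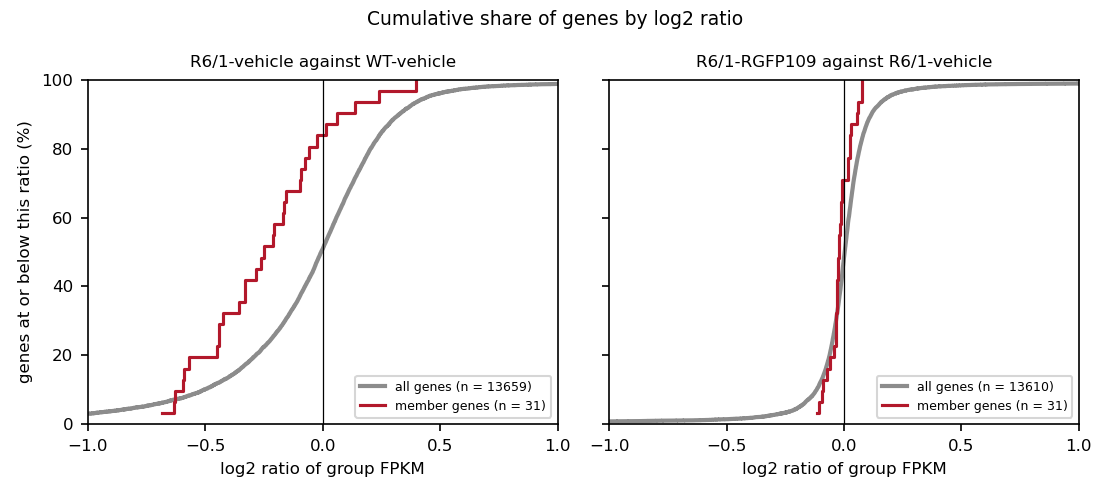
Cumulative share of genes in percent at or below each log2 ratio, for the 31 members kept (red) and all genes kept (gray), for genotype in vehicle mice on the left and for RGFP109 in R6/1 mice on the right. On the left the red line lies to the left of the gray line over most of its course, with 83.9% of members and 50.9% of all genes below 0, and on the right the members all lie between -0.12 and 0.078.

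Among the SREBP regulators, Insig1 had the lowest ratio of all 31 members in vehicle mice. INSIG1 retains SCAP in the endoplasmic reticulum, and its gene (chr5:28071412-28078662) is itself a target of SREBP. Its level was 24.9 FPKM in WT-vehicle and 15.5 in R6/1-vehicle, and 23.1 in WT-RGFP109 and 15.8 in R6/1-RGFP109, a difference of -37.8% in vehicle and -31.5% in RGFP109 mice. The log2 ratios were -0.68 and -0.55, and 6.18% of all genes had a lower ratio in vehicle mice. Srebf2, which encodes the SREBP that mainly drives cholesterol synthesis (chr15:82147269-82205379), had 59.3, 46.3, 56.9 and 45.4 FPKM and log2 ratios of -0.36 and -0.32.

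The other 3 regulators had ratios nearer to 0. Srebf1, whose products mainly drive fatty acid synthesis, had 30.7 FPKM in WT-vehicle and 28.8 in R6/1-vehicle, and 26.2 in WT-RGFP109 and 28.3 in R6/1-RGFP109. Its log2 ratios of -0.092 and 0.11 lay on opposite sides of 0. They differed by 0.20, more than for any other member kept, and the WT-RGFP109 level was the lowest of the 4. Of the exonic bases of Srebf1, 2.54% overlap Rai1 on the opposite strand, which had 17.5 FPKM in WT-vehicle. Scap, the escort protein of SREBP, had 34.1, 30.6, 32.3 and 31.1 FPKM and ratios of -0.16 and -0.057. Insig2, which acts like INSIG1 but is not known as a strong SREBP target, was higher in R6/1, at 20.5, 22.6, 21.7 and 23.9 FPKM and ratios of 0.14 and 0.14, in contrast to Insig1.

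Of the genes of sterol movement and removal, Cyp46a1 stood out by its ratio and Apoe by its level. Cyp46a1 (chr12:108334268-108362234) encodes the neuronal hydroxylase that turns cholesterol into an oxysterol able to leave the brain. It was listed at 166 FPKM in WT-vehicle and 108 in R6/1-vehicle, and 163 in WT-RGFP109 and 107 in R6/1-RGFP109, with log2 ratios of -0.63 and -0.61. Apoe, the main lipid carrier of the brain, made largely by astrocytes (chr7:19696244-19701310), had 1940.3 FPKM in WT-vehicle and 1308 in R6/1-vehicle, and 1819 in WT-RGFP109 and 1332 in R6/1-RGFP109. Its R6/1 values differed from the WT values by -32.6% and -26.8%, with log2 ratios of -0.57 and -0.45.

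Stard4, a sterol carrier of the cytosol (chr18:33199138-33213862), had 6.22, 4.93, 5.84 and 4.63 FPKM and log2 ratios of -0.33 and -0.33. Lpl, the lipase that frees fatty acids from lipoproteins, had 15.3, 13.6, 14.7 and 12.7 FPKM and ratios of -0.17 and -0.21. The 2 export pumps differed from these genes and from each other. Abca1, which loads cholesterol onto apolipoproteins (chr4:53030789-53159988), was higher in R6/1, at 6.11 FPKM in WT-vehicle and 7.22 in R6/1-vehicle, and 5.88 in WT-RGFP109 and 7.10 in R6/1-RGFP109, with ratios of 0.24 and 0.27. Abcg1, which passes sterol on to formed particles, had 19.8, 19.4, 19.7 and 19.1 FPKM and ratios of -0.026 and -0.049.

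Nr1h3, which encodes LXR alpha (chr2:91184061-91202829), was the member with the highest ratio. It was listed at 2.13 FPKM in WT-vehicle and 2.84 in R6/1-vehicle, and 2.19 in WT-RGFP109 and 2.91 in R6/1-RGFP109, with log2 ratios of 0.40 and 0.39, and 93.5% of all genes had a lower ratio in vehicle mice. Its level is low, and with 1 FPKM added to both values in place of 0.1 the ratios became 0.29 and 0.29. Nr1h2, which encodes LXR beta, the more abundant form here, did not share this, at 32.1, 30.8, 32.1 and 32.2 FPKM and ratios of -0.060 and 0.0052. Mylip, an LXR target that encodes the ubiquitin ligase IDOL for lipoprotein receptors, had 5.53, 4.75, 5.27 and 4.49 FPKM and ratios of -0.21 and -0.23.

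The 2 genotype comparisons used different mice and gave similar values for these genes. Of the 31 members, 24 (77.4%) were lower in R6/1 in both, against 40.8% of 13460 genes, and 5 (16.1%) were higher in both, namely Mvk, Hsd17b7, Insig2, Abca1 and Nr1h3, against 42.0%. The same side in both was taken by 29 members (93.5%) against 82.8% of genes. With a minimum of 0.1 on the log2 scale in both, 19 members (61.3%) were lower, against 27.3% of genes, and 3 (9.68%), namely Insig2, Abca1 and Nr1h3, were higher, against 25.2%. Lower by more than 0.25 in both were 13 members (41.9%) against 15.1%: Acat2, Hmgcs1, Mvd, Fdft1, Cyp51, Tm7sf2, Msmo1, Dhcr7, Srebf2, Insig1, Stard4, Cyp46a1 and Apoe. By more than 0.5 in both, 4 members (12.9%) were lower, against 6.26%, and these were Mvd, Msmo1, Insig1 and Cyp46a1. Within 0.1 of 0 in both lay 5 members (16.1%) against 18.6% of genes, namely Mvk, Lss, Hsd17b7, Abcg1 and Nr1h2.

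The ratios of a member in vehicle mice and in RGFP109 mice differed by a median of 0.043 on the log2 scale. The median over all genes was 0.086. The difference was less than 0.1 for 24 of 31 members (77.4%) against 56.2% of genes. The genes kept reach down to a mean of 1 FPKM and were not matched to the members for level. The part of level in this closeness was not tested. Across the 31 members the ratios of the 2 comparisons had a Pearson correlation of 0.96 and a Spearman correlation of 0.96, as a description only, since all members come from the same libraries and the genes are not independent. Ratios under 0.1, such as those of Lss or Abcg1, are of the size of that median difference over all genes.

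With RGFP109 these genes stood at nearly the level of the vehicle mice of the same genotype. In R6/1 mice, 0 of 31 members differed by more than 0.5 between R6/1-RGFP109 and R6/1-vehicle, against 2.96% of 13610 genes, and 0 by more than 0.25, against 6.59%. The member ratios ran from -0.12 for Nsdhl to 0.078 for Fdft1, with a median of -0.022, and 22 of 31 (71.0%) were below 0 against 48.1% of genes. In wild type mice, 0 of 31 differed by more than 0.5 between WT-RGFP109 and WT-vehicle, against 3.82% of 13621 genes, and 0 by more than 0.25, against 10.1%. Here 25 of 31 (80.6%) were below 0 against 51.0%, with a median of -0.045. The sizes were small in both genotypes, with a median absolute ratio of 0.031 in R6/1 and 0.047 in wild type mice. All genes had 0.049 and 0.071. Here too the genes kept were not matched to the members for level, and the part of level was not tested.

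**Figure D4:**
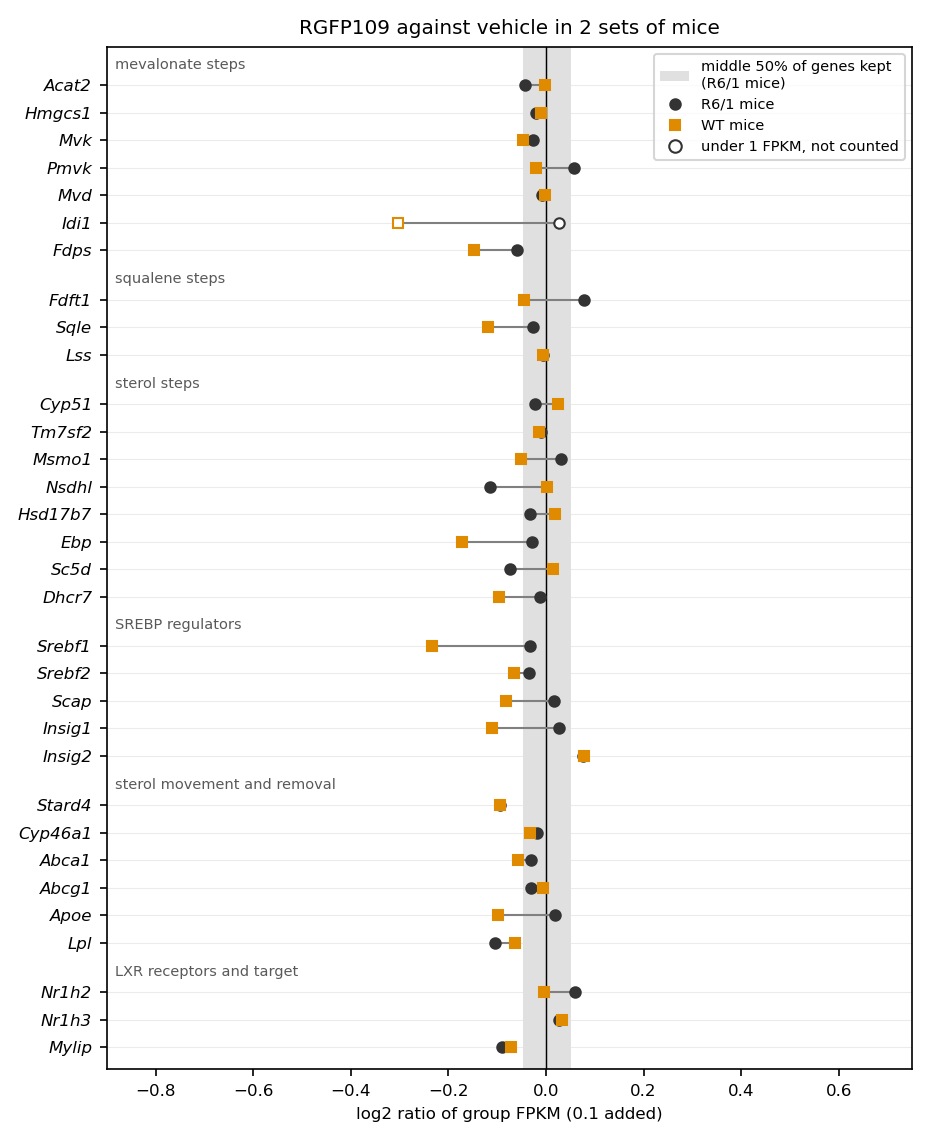
Log2 ratio of RGFP109 to vehicle for each member in R6/1 mice (circles) and in WT mice (squares), joined by a line, on the same horizontal scale as the plot of genotype ratios, with the middle 50% of all genes in R6/1 mice in gray. Of the filled symbols the farthest from 0 is Srebf1 in WT mice, at -0.23.

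Srebf1 had the largest treatment ratio of a member kept, -0.23 in wild type mice against -0.032 in R6/1 mice. In wild type mice the ratio of Ebp was -0.17, that of Fdps -0.15, that of Sqle -0.12 and that of Insig1 -0.11, and in R6/1 mice these 4 had ratios of -0.028, -0.060, -0.026 and 0.026. Outside 0.1 in R6/1 mice were Nsdhl, at -0.12, and Lpl, at -0.11. Both treatment ratios lay within 0.1 of 0 for 24 members (77.4%), against 55.0% of 13288 genes, again not matched for level. The same side in both genotypes was taken by 20 members (64.5%) against 49.9%, but by 0 members with at least 0.1 in both, against 6.95%. The 4 members that were lower by more than 0.5 in both genotype comparisons had treatment ratios in R6/1 mice of -0.0073 for Mvd, 0.031 for Msmo1, 0.026 for Insig1 and -0.018 for Cyp46a1.

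The distance of the treated R6/1 mice from WT-vehicle was near that of the R6/1-vehicle mice or somewhat larger, in a comparison that shares the WT-vehicle mice. In R6/1-vehicle, 6 of 31 members (19.4%) were past 0.5, against 14.0% of 13659 genes. There 15 (48.4%) were lower by more than 0.25, against 22.5%, and the median was -0.25. Between R6/1-RGFP109 and WT-vehicle, 6 of 31 members (19.4%) were past 0.5, against 13.8% of 13653 genes, and 19 (61.3%) were lower by more than 0.25, against 21.7%. The median ratio was -0.31. Insig1 had a ratio of -0.66, Cyp46a1 -0.64, Mvd -0.60, Msmo1 -0.60, Apoe -0.55, Fdft1 -0.51 and Nr1h3 0.43 in this comparison. A group's FPKM values are multiplied by a factor of 0.962 to 1.04 from table to table, the same for nearly all genes, so ratios were formed within a table only.

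Fatty acid synthesis, the other branch that SREBP factors drive, had a median ratio of like size. Of its 11 genes, 10 were below 0 in R6/1-vehicle and 8 in R6/1-RGFP109, against 50.9% and 48.2% of all genes, with medians of -0.30 and -0.25. Lower by more than 0.5 were 1 (9.09%) and 2 (18.2%) of them, against 10.2% and 8.58% of all genes. The largest ratios in vehicle mice were those of the desaturases Fads1 (92.8, 63.7, 91.1 and 62.4 FPKM in the order used above, ratios of -0.54 and -0.54), Scd1 (-0.40 and -0.29) and Fads2 (-0.39 and -0.50) and of Acly, which supplies acetyl-CoA to both branches (-0.35 and -0.40). Acaca, with ratios of -0.065 and 0.079, Elovl6, with 0.11 and 0.00017, and Me1, with -0.019 and 0.069, lay above 0 in RGFP109 mice. With RGFP109 the medians of this list were -0.037 in R6/1 and -0.031 in wild type mice.

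Markers of the cell types of the striatum also differed by genotype, and the marker levels are set beside the enzymes here. None of the markers was listed at 0 in any group. The striatal identity of the tissue showed in the 10 markers of striatal projection neurons, all above 1 FPKM in every group, with a summed level of 3587 FPKM in WT-vehicle and 1309 in R6/1-vehicle, and 3419 in WT-RGFP109 and 1179 in R6/1-RGFP109 and a median log2 ratio of -1.31 in vehicle and -1.36 in RGFP109 mice. All 10 were lower in R6/1 in both comparisons. For the 8 astrocyte markers the sums were 1223, 881, 1219 and 881 FPKM, 7 of 8 were lower in both comparisons, and the medians were -0.36 and -0.43. In vehicle mice the astrocyte markers ran from -0.73 to 0.052 and the enzymes from -0.63 to 0.062. The part of projection neurons and astrocytes in the ratios of the members was not tested.

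Oligodendrocyte markers also differed between the groups. The summed level of the 9 markers was 4902 FPKM in WT-vehicle and 2747 in R6/1-vehicle, and 3818 in WT-RGFP109 and 3100.3 in R6/1-RGFP109, with a median ratio of -0.80 in vehicle and -0.21 in RGFP109 mice, while the enzymes had medians of -0.28 and -0.26. Between WT-RGFP109 and WT-vehicle all 9 were lower, with a median of -0.39, where the 17 enzymes had a median of -0.015. The part of oligodendrocytes in the ratios of the members was not tested. The 4 markers of oligodendrocyte precursors had genotype medians of -0.24 and -0.018. Of the other lists, the 6 microglia markers had genotype medians of -0.28 and -0.27 and the 5 endothelium markers of -0.19 and -0.11, and their part was not tested.

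Markers of tissue outside the striatum differed between the groups as well. The 6 choroid plexus markers summed to 1483, 629, 321 and 39.6 FPKM in the 4 groups, with median treatment ratios of -2.19 in R6/1 and -1.90 in wild type mice, where the members had -0.022 and -0.045. The 5 neocortex markers summed to 343, 189, 318 and 241 FPKM, with genotype medians of -0.68 and -0.13 and a treatment median of 0.50 in R6/1 mice. A part of neocortex or choroid plexus in the values of single members was not tested.

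**Figure D5:**
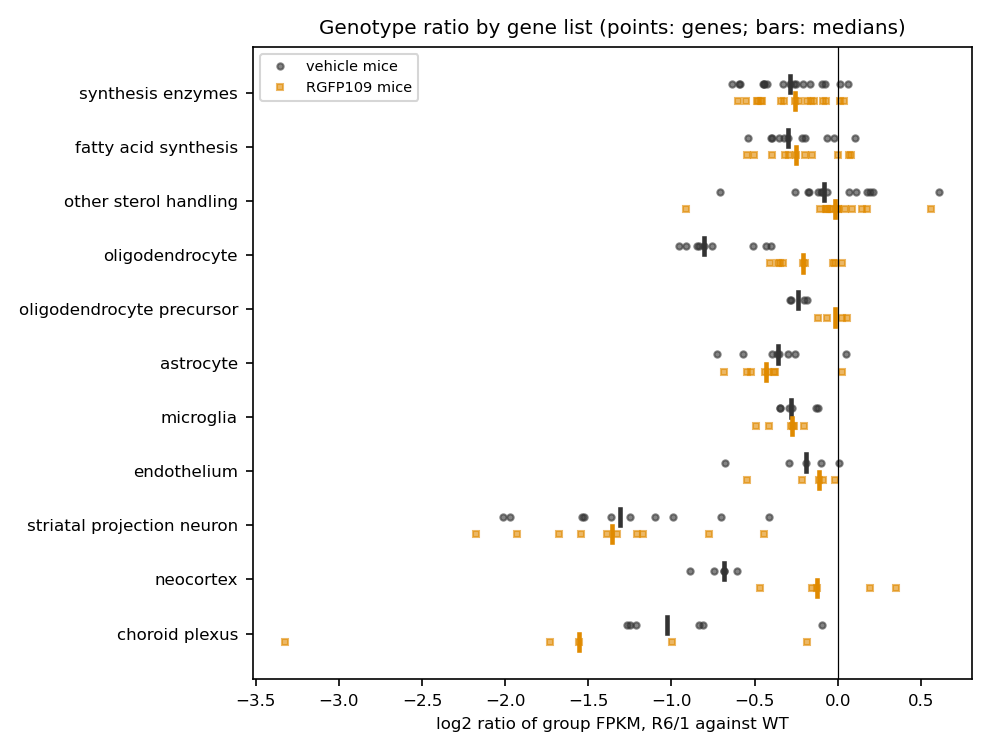
Log2 ratio of R6/1 to WT for the genes of each list, in vehicle mice (circles) and in RGFP109 mice (squares), with bars at the medians. The medians were -0.28 and -0.26 for the enzymes, -0.30 and -0.25 for fatty acid synthesis, -0.36 and -0.43 for astrocyte, -0.28 and -0.27 for microglia, -0.80 and -0.21 for oligodendrocyte and -1.31 and -1.36 for projection neuron markers.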

How the data were processed

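RNA-seq of the striatum of 24 mice in 4 groups was used. Per the submitters' processing notes and methods, single-end reads were aligned to mm10 by STAR 2.5.0b, and Cufflinks 2.2.1 and Cuffdiff gave FPKM values for each pair of groups. The authors deposited 6 tables with 1 FPKM value per group. Cuffdiff pooled the libraries of a group, and each value is the authors' group value, with no SD. The tables also hold the authors' fold change, test statistic, p-value and q-value, which were not used. No value column belonged to an unmapped sample (0 columns). Counts were not used here, and the depth of the libraries is unknown. The sources used here do not give the strand setting of the counting.

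The 6 tables were joined on the 24340 genes they share. The log2 ratio of a pair was taken within its table after adding 0.1 FPKM to both values, which understates the ratio of low genes, and genes with a mean of at least 1 FPKM in the pair were kept. Sizes of 0.5, 0.25 and 1 on the log2 scale were counted for the members and for all genes. Levels are those of the vehicle table and of the RGFP109 table, scaled separately by Cuffdiff. With 1 value per group no test was made. All 32 members are named, and of the lists of fatty acid synthesis and of other sterol handling the 4 kept genes with the largest vehicle ratio. Of fatty acid synthesis 3 more are named for their ratios, chosen after their values were seen. The members, lists and alternatives were chosen with earlier results of these data known. Gene coordinates were taken from a RefSeq gene list. Promoters came from RefSeq (GRCm38.p6), exon overlap from the GENCODE annotation. Ratios were computed in Python 3.11.15 with pandas 2.3.3 and numpy 2.4.6 and drawn with matplotlib 3.10.9. The calculation was tested on simulated data with changes of 1 on the log2 scale, larger than the ratio of any member. Smaller changes were not simulated.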

Additional observations from a re-analysis of the deposited data

How the results depend on the processing

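The alternatives were no pseudocount or 1 FPKM, no minimum FPKM or 5 FPKM, centring on the median of all genes, ratios rebuilt through another group, and other minimum sizes. Changing the minimum FPKM cannot move the ratio of a single gene. Centring moves all genes of a comparison by the same amount, and rebuilding by nearly the same. Many single values therefore stayed close by construction. Of 1073 values for single members under the alternatives, 1070 moved by less than 0.086 on the log2 scale (the median difference between the genotype comparisons over all genes). The other 3 moved by more, all of Nr1h3 with 1 FPKM added. The sign changed in 4 of the 1073 values, of Nr1h2 and Mvd, which lay within 0.0053 of 0 before and after. It changed in 0 of the values past 0.5. Of 96 counts and medians 89 stayed close and 7 moved, by construction, with the minimum size. Above 0.25 in either direction lay 16 members for R6/1-vehicle against WT-vehicle, 16 for R6/1-RGFP109 against WT-RGFP109 and 20 for R6/1-RGFP109 against WT-vehicle, and above 1 lay 0, 0 and 0. The count of members on the same side in both treatment comparisons went from 20 to 0 with a minimum of 0.1. The median of the members ran from -0.26 to -0.24 in vehicle mice and from -0.25 to -0.20 in RGFP109 mice. No paired analysis was possible because the deposited tables hold 1 pooled value per group, and for the same reason no library could be left out and no spread between mice can be given.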

Other observations

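Among 15 further genes of sterol handling that are not members, 14 passed the minimum FPKM. Their median log2 ratio of R6/1 to WT was -0.080 in vehicle mice and -0.019 in RGFP109 mice. In each, 8 of 14 (57.1%) were below 0, near the 50.9% and 48.2% of all genes. The medians hide a pair of genes with ratios farther from 0 than those of any member on the same side. Lcat, which esterifies cholesterol on lipoprotein particles, was listed at 14.0 FPKM in WT-vehicle and 8.51 in R6/1-vehicle, and 14.5 in WT-RGFP109 and 7.66 in R6/1-RGFP109, with ratios of -0.71 and -0.91. Abca7, a lipid transporter related to Abca1, was higher in R6/1, at 4.88, 7.51, 5.41 and 8.03 FPKM in the same order and ratios of 0.61 and 0.56. Lipa, the lysosomal lipase for cholesteryl esters, had ratios of -0.26 and -0.049, and Cyp7b1, an oxysterol hydroxylase, of 0.21 and 0.0035. As for the members, no value per mouse was used, and no test was made.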
